A study of Mus musculus with 37 samples.

Results

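The genes described here carry the cAMP signal that holds the mouse oocyte in meiotic prophase. They were chosen by name for their roles in that signal, and they are 9 of the 54752 genes in the deposited gene table: the receptors Gpr3 and Gpr12, the G protein gene Gnas, the cyclase gene Adcy3, the phosphodiesterase gene Pde3a, and the protein kinase A (PKA) genes Prkaca, Prkacb, Prkar1a and Prkar2a. All 9 were matched by Ensembl gene identifier to GENCODE M21 (build GRCm38).

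In the fully grown oocyte, GPR3 and, to a lesser extent in the mouse, the related receptor GPR12 signal without an added ligand through the stimulatory G protein, which turns on adenylyl cyclase. The cAMP that results keeps PKA active, and PKA holds the cell cycle machinery in check through WEE2 and CDC25B, so the nucleus (germinal vesicle) stays intact. PDE3A breaks down cAMP, and cGMP that enters from the follicle cells through gap junctions inhibits it. When cGMP falls after the ovulatory hormone signal, PDE3A is released, PKA activity drops and meiosis resumes.

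The oocytes came from C57BL/6 females aged 6 to 8 weeks that had received 5 IU of the gonadotropin PMSG, and each library was made from 1 oocyte by Smart-seq2, a full-length method that primes on the poly(A) tail. Germinal vesicle (GV) oocytes were collected 48 h after PMSG. Metaphase I (MI) oocytes were GV oocytes kept for 8 h in M16 medium, and metaphase II (MII) oocytes were ovulated ones taken 15 h after 5 IU of hCG. The zona was removed from all oocytes before lysis, and so was the polar body. Batch A held 6 GV and 6 MII oocytes, and batch B held 10 GV and 15 MI oocytes, so each maturing stage was compared with the GV oocytes of its own batch, and MI and MII never met in 1 batch.

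Library totals in RSEM expected counts (reads shared out among transcripts by a model) ran from 7509812 to 12648571 in GV and from 9930422 to 13988336 in MII oocytes of batch A. In batch B they ran from 7184193 to 17724506 in GV and from 2709247 to 19390137 in MI oocytes. At such totals a gene at 1 CPM (a count for each 1e6 counts in the library) rests on very few reads, which matters for Gpr12 and Adcy3. A few libraries stood apart. MII oocyte 1 of batch A had 29816 genes with at least 1 count, where the other MII oocytes had from 19574 to 22598. Without it, 0 members were called at MII by edgeR, and the log2 change was -0.74 for Gnas (adjusted p = 0.00369) and 0.58 for Pde3a (adjusted p = 0.0351). MI oocyte 15 had the lowest total, 2709247, and MI oocytes 4, 8 and 9 had from 1.07 to 1.13 HTSeq counts per RSEM count, where the other oocytes had from 1.98 to 2.20. Without oocyte 15, and without the other 3, 0 members were called at MI by edgeR. The feature CT010467.1, chosen for mention after its values were seen, took from 7.24 to 41.5% of the counts of an oocyte. The labels do not say which oocytes came from the same female, so every p-value here measures spread between oocytes.

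The libraries carried the markers of the labelled cell. The 10 oocyte markers summed to a median of 12231 CPM in GV and 7648 CPM in MII oocytes of batch A, and to 4327 CPM in GV and 3881 CPM in MI oocytes of batch B, with Gdf9 the most abundant in each group and no marker at a median of 0. Of the same list, 4 genes fell at MII past 2-fold, the zona pellucida genes Zp1, Zp2 and Zp3 and the maternal gene Ooep, all chosen for mention after their values were seen. The 14 cumulus and granulosa markers summed to a median of 42.5 CPM in GV and 39.6 CPM in MII oocytes of batch A, and to 34.6 CPM in GV and 36.6 CPM in MI oocytes of batch B. Their most abundant genes were Cyp19a1 in the first 3 groups and Nr5a2 at MI, and 4, 6, 8 and 9 of the 14 had a median of 0 in the GV and MII oocytes of batch A and the GV and MI oocytes of batch B. The 8 blood and immune markers had a median sum of 0.103 CPM in GV and 0.407 CPM in MII oocytes of batch A, where MII oocyte 1 reached 16.3 CPM. In batch B their median sum was 4.54 CPM in GV and 2.47 CPM in MI oocytes. Hemoglobin genes were the most abundant of this list in every group.

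A gene was called changed when its adjusted p was under 0.05 (edgeR quasi-likelihood test, Benjamini-Hochberg over all genes tested) and its change was over 2-fold. None of the 9 members was called between GV and MII, where 1095 of 12929 genes tested were called (8.47%). The direction of the set was mixed: 2 members had an unadjusted p under 0.05, Gnas lower and Pde3a higher at MII, and the same 2 passed on the adjusted p alone, a rule that 20.6% of all genes met. DESeq2 also called 0 members. Between GV and MI, 0 of the 7 members tested were called, against 0.121% of 12419 genes, with 0 at an unadjusted p under 0.05 and 0 by DESeq2. Gpr12 and Adcy3 were too low in batch B to be tested.

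The median log2 change of the members was 0.23 from GV to MII, beside 0.01 over all genes tested, and -0.04 from GV to MI, beside 0.02. When the MII change was set against the MI change in 1 fit of all 37 oocytes, 0 of the 9 members were called by edgeR, 0 had an unadjusted p under 0.05 and DESeq2 called 0, while 4.03% of all genes were called. Gpr12 and Adcy3 were among the 9 although too low to be tested in batch B alone, so for them this comparison decides nothing. These values are relative to the rest of the messages in the same oocyte. Batch A also held added spike-in RNA, and the counts per spike-in count had a median of 117 in GV (67.2 to 168) and 84.8 in MII oocytes (70.5 to 101). Scaled to the spike-ins, the median gene changed by -0.72 on the log2 scale from GV to MII, so all 6 members with a higher level at MII in CPM had a lower one by that scaling.

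**Figure D1:**
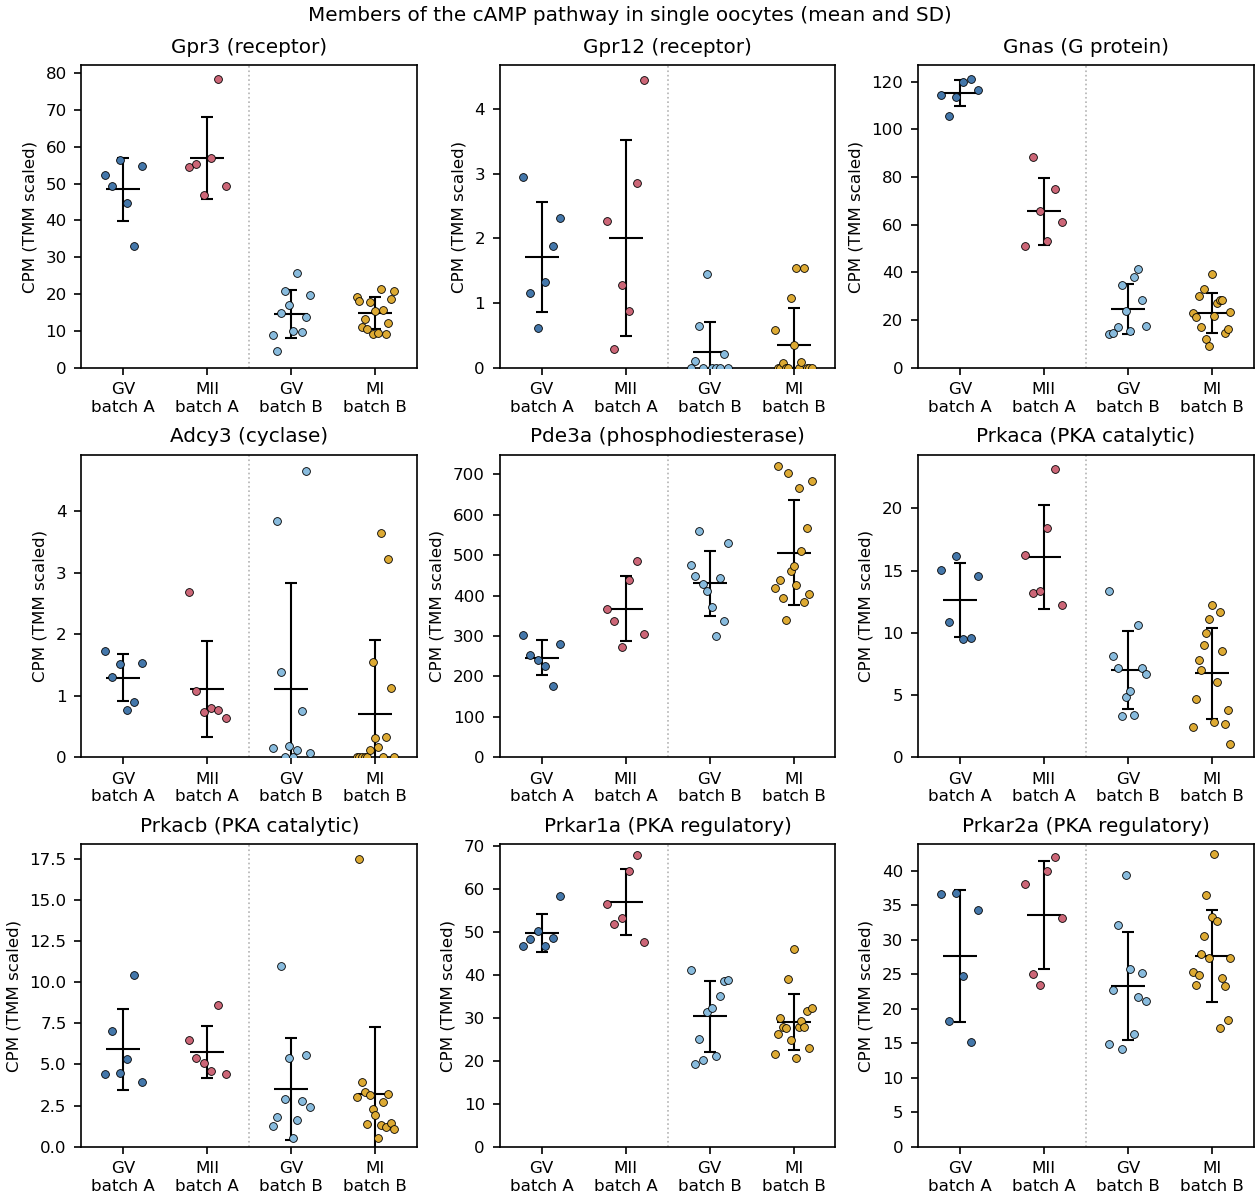
CPM of each member in every oocyte, on an axis of its own for each gene, with 1 point per oocyte, a bar at the mean and lines of 1 SD (cut at 0) for GV and MII of batch A and GV and MI of batch B. Gnas is the 1 gene whose GV (105.7 to 121 CPM) and MII (51.2 to 88.5 CPM) points do not meet.

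The receptors come first in the pathway. Gpr3, whose receptor is active without an added ligand, lies on the minus strand at chr4:133209340-133212536. In batch A its level ran from 33.1 CPM through a median of 50.8 to 56.3 CPM in the 6 GV oocytes, and from 46.9 through 54.9 to 78.4 CPM in the 6 MII oocytes. The ranges overlapped, and 2 MII oocytes lay above every GV oocyte. The log2 change was 0.23 (SE 0.162, adjusted p = 0.329 by edgeR), and it was -0.49 with spike-in scaling, which turned its direction. Over the 12 fits that each left out 1 oocyte it ran from 0.12, without MII oocyte 5, to 0.29, and none passed (adjusted p = 0.2496 to 0.6265). In batch B Gpr3 ran from 4.54 through 14.3 to 25.9 CPM in GV and from 9.12 through 15.5 to 21.3 CPM in MI oocytes. Every MI oocyte lay within the GV range, and the log2 change was 0.02 (SE 0.227, adjusted p = 0.989). The message was thus abundant at all 3 stages, with no change that passed the test.

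Gpr12, the related receptor, lies at chr5:146582398-146585239 and was scarce. Its mean was 1.71 CPM (SD 0.850, n = 6) in GV and 2.00 CPM (SD 1.51, n = 6) in MII oocytes of batch A, from 0.293 to 4.44 CPM at MII. The log2 change was 0.24 (SE 0.529, adjusted p = 0.789). It was -0.16 without MII oocyte 6, and it turned to -0.59 with spike-in scaling, at 0.13 relative to the median gene. In batch B Gpr12 had no count in 6 of 10 GV and 8 of 15 MI oocytes and reached at most 1.55 CPM. At this depth, no statement on its change from GV to MI could be made.

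Per base of transcript, Gpr3 made up nearly all of the receptor message in each group. Its share of the Gpr3 and Gpr12 level (counts divided by transcript length) had a median of 96.5% in GV and 97.2% in MII oocytes of batch A, and its lowest value there was 88.9%. The median was 100% in GV and in MI oocytes of batch B, with a lowest value of 78.6%. That median follows from the lack of any Gpr12 count in 6 of 10 GV and 8 of 15 MI oocytes there.

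Gnas encodes the alpha subunit of the stimulatory G protein and is an imprinted locus with several first exons, at chr2:174284320-174346744 on the plus strand. It was the member with the clearest difference between stages. In batch A it ran from 105.7 through a median of 115.6 to 121 CPM in GV and from 51.2 through 63.4 to 88.5 CPM in MII oocytes. All 6 MII oocytes lay below all 6 GV oocytes. Lack of overlap was found for 1 of the 9 members in batch A and for 9.79% of all genes tested there. Gnas fell by 0.81 on the log2 scale (SE 0.142, adjusted p = 0.0011 by edgeR), short of 2-fold and so not called, with MII at 0.570 of the GV mean. With spike-in scaling the log2 change was -1.54 (adjusted p = 6.8e-05) and Gnas was called, at -0.83 relative to the median gene. In a single fit of all 37 oocytes the adjusted p was 0.0749 and Gnas did not pass, within a range of 5.9e-06 to 0.0749 over the settings tried.

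In batch B, Gnas ran from 14.3 through 20.7 to 41.4 CPM in GV and from 9.12 through 23.2 to 39.2 CPM in MI oocytes. The groups overlapped widely, as they did for the other members in batch B, where 0 of 9 lacked overlap and 0% of all genes did. The log2 change was -0.09 (SE 0.222, adjusted p = 0.939). The difference between the MII and MI changes was -0.65 (SE 0.332, adjusted p = 0.300), so a fall at MII that was not also present at MI was not shown. The batches themselves differed: every GV oocyte of batch B lay below every GV oocyte of batch A for Gnas, Gpr3 and Prkar1a, as they did for 13.5% of 15083 genes, and this difference was not tested.

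The deposited HTSeq counts of Gnas could not be used. Their median was 8.5 in the GV oocytes of batch A, where RSEM gave 1319, and Gnas did not pass the filter on low counts there. Gm20721, a gene annotated on the opposite strand and chosen for mention after its values were seen, covers 1466 of the 1716 bases of Gnas-208 and 1436 of the 1695 bases of Gnas-206. Its own HTSeq median was 0 in these oocytes and its RSEM median was 21.2. The part of this overlap in the HTSeq values was not tested, and the values given here are RSEM's.

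Of the transcripts tested, 5.57% were called between GV and MII in batch A, and of the 14 member transcripts tested, 1 was called, with 4 at an unadjusted p under 0.05, as were 5438 of all 22461 transcripts. The transcript called was Gnas-208, which holds the alternative exon at chr2:174336747-174336791 and encodes the longer form of the G protein subunit (coding length 1182 bases). Gnas-208 had a mean of 63.8 CPM (SD 13.0, 39.9 to 78.2) in GV and of 28.8 CPM (SD 8.49, 20.4 to 40.6) in MII oocytes. The ranges met only at their edges, and Gnas-208 fell by 1.15 on the log2 scale (SE 0.212, adjusted p = 0.0051). Gnas-206 skips that exon (coding length 1137 bases) and had a mean of 31.7 CPM in GV and 26.1 CPM in MII oocytes, with a log2 change of -0.28 (SE 0.276, unadjusted p by edgeR = 0.328). Gnas-211, which starts far upstream at chr2:174284320 and has a different coding sequence, had a mean of 11.6 CPM in GV and 4.95 CPM in MII oocytes, a log2 change of -1.23 (SE 0.372, adjusted p = 0.0549).

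The shares of these forms within Gnas were described in each oocyte. Gnas-208 made up a mean of 54.9% of Gnas counts in GV (35.0 to 63.0%) and 43.6% in MII oocytes (34.6 to 49.9%). Gnas-206 made up 27.5% in GV (16.5 to 53.7%) and 40.1% in MII oocytes (26.9 to 49.7%), and Gnas-211 made up 10.1% and 7.47%. The ranges overlapped for all 3, for Gnas-208 and Gnas-206 through 1 GV oocyte with 35.0% and 53.7%. In a test of each transcript against the others of its gene (edgeR diffSpliceDGE), 0 of the 8 member transcripts tested in batch A were called and 0 had an unadjusted p under 0.05, while 0.937% of all 15586 transcripts were called and 839 had an unadjusted p under 0.05. In batch B the shares were wider: Gnas-208 ran from 19.9 to 62.0% in GV and from 12.1 to 100% in MI oocytes.

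Between GV and MI, no transcript of any gene was called by edgeR (0% of 22717), while 1615 had an unadjusted p under 0.05 and DESeq2 called 103. Of the 13 member transcripts tested there, 0 were called and 1 had an unadjusted p under 0.05. For transcript shares, 0 of 9 member transcripts were called, against 0.0242% of all transcripts, and 1 had an unadjusted p under 0.05, as did 354 of all 16502.

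For the other members with more than 1 form, mean shares are given. Gpr3-202, the single-exon form with an annotated 3′ untranslated region, made up a mean of 75.2% of Gpr3 counts in GV and 61.5% in MII oocytes of batch A, and 98.4% in GV and 98.8% in MI oocytes of batch B. Gpr3-201, which has a further upstream exon, ran from 6.00 to 20.2 CPM in GV and from 14.5 to 33.4 CPM in MII oocytes, with a log2 change of 0.86 (SE 0.305, adjusted p = 0.0986). The opposite-strand gene Cd164l2 covers 111 of the 1116 bases of Gpr3-201, and its part in that value was not tested. Prkaca-201 held all Prkaca counts in the GV oocytes of batch A, and a mean of 70.6% in GV and 47.5% in MI oocytes of batch B, where Prkaca-202 held the rest. Single oocytes of batch B ran from 29.8 to 100% in GV and from 0 to 100% in MI for Prkaca-201. Prkacb-202 made up 95.4% of Prkacb counts in GV and 98.1% in MII oocytes of batch A. In batch B it made up 87.99% in GV and 54.9% in MI oocytes, where it ran from 0 to 100%. Prkacb-204 and the retained-intron form Prkacb-205 held 21.7% and 17.6% at MI, with medians of 0% and 10.7%. These shares rest on few reads, since Prkacb had a median of 27.0 RSEM counts in MI oocytes. Pde3a-201, Prkar1a-201 and Prkar2a-201 each made up at least 84.8% of their gene in every group's mean.

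Adcy3, at chr12:4133103-4213525, encodes the adenylyl cyclase that has been tied to the arrest in mouse oocytes. It was near the limit of detection. Its mean was 1.29 CPM (SD 0.379, n = 6) in GV and 1.12 CPM (SD 0.779, n = 6) in MII oocytes of batch A, with a log2 change of -0.22 (SE 0.428, adjusted p = 0.760). It was -0.67 without MII oocyte 1 (adjusted p = 0.260) and ran from -0.67 to -0.10 over the 12 fits that each left out 1 oocyte. In batch B the median was 0.163 CPM in GV and 0.117 CPM in MI oocytes, 2 of 10 GV and 7 of 15 MI oocytes had no count, and the highest value was 4.66 CPM. Most of what was counted in batch A fell on Adcy3-208, a form with a retained intron and no coding sequence, at a mean of 86.0% in GV and 96.0% in MII oocytes. The coding form Adcy3-201 held 9.85% and 0%. In batch B the mean share of the coding form was higher, 34.8% in GV and 69.5% in MI oocytes, and that of Adcy3-208 was 45.2% and 29.3%, on the few counts there. The median share of the coding form was 0% in GV oocytes of batch B, below the 9.64% in those of batch A, and 92.8% in MI oocytes. In batch A, Gpr12 was alike in that its retained-intron form Gpr12-202 held 52.5% of its counts in GV and 41.4% in MII oocytes. Exons of Cenpo on the opposite strand cover 1380 of the 6246 exonic bases of Adcy3, and Cenpo had a median of 975 RSEM counts in the GV oocytes of batch A beside 15.1 for Adcy3. The part of Cenpo in the Adcy3 counts was not tested.

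Pde3a encodes the phosphodiesterase that clears cAMP in the oocyte, at chr6:141249269-141507448 on the plus strand. In batch A it ran from 177 CPM through a median of 247 to 304 CPM in GV and from 273 through 352 to 485 CPM in MII oocytes. Of the 6 MII oocytes, 5 lay above all GV oocytes. Pde3a rose by 0.58 on the log2 scale (SE 0.164, adjusted p = 0.0210 by edgeR), with the MII mean at 1.49 of the GV mean, a rise relative to other messages only: with spike-in scaling the log2 change was -0.16 (adjusted p = 0.608), at 0.55 relative to the median gene. The adjusted p was 0.0507 without MII oocyte 4 and 0.0133 to 0.0507 over the 12 fits that each left out 1 oocyte. A replicate block gave 0.0753 and also did not pass, but it pairs oocytes by a number that no label ties to a pairing. The range was 0.00628 to 0.608 over the other settings.

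In batch B, Pde3a ran from 300.3 through 436 to 559 CPM in GV and from 340.2 through 459.8 to 721 CPM in MI oocytes. The groups overlapped, with 5 of 15 MI oocytes above all GV oocytes. The log2 change was 0.23 (SE 0.132, adjusted p = 0.537), and the MII and MI changes differed by 0.41 (SE 0.224, adjusted p = 0.353). Pde3a thus pointed the same way at both stages in CPM, and only the MII comparison passed on the adjusted p.

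The PKA catalytic subunits phosphorylate the targets of the pathway. Prkaca had a mean of 12.6 CPM in GV and 16.1 CPM in MII oocytes of batch A, with a log2 change of 0.35 (SE 0.216, adjusted p = 0.264) that was -0.40 with spike-in scaling. Prkacb had means of 5.94 and 5.77 CPM and a log2 change of -0.04 (SE 0.287, adjusted p = 0.939). In batch B, Prkaca ran from 3.35 to 13.3 CPM in GV and from 1.09 to 12.3 CPM in MI oocytes, and Prkacb from 0.512 to 11.0 CPM in GV and from 0.515 to 17.5 CPM in MI oocytes. Oocytes of 1 group thus differed from each other far more than the group means did, and neither gene passed a test.

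The regulatory subunits hold the catalytic subunits inactive until cAMP binds. Prkar1a, the type I subunit, ran from 46.7 through 48.4 to 58.3 CPM in GV and from 47.8 through 54.9 to 68.0 CPM in MII oocytes of batch A, with a log2 change of 0.19 (SE 0.129, adjusted p = 0.312) that was -0.54 with spike-in scaling. Prkar2a, the type II subunit, ran from 15.2 through 29.5 to 36.8 CPM in GV and from 23.5 through 35.6 to 42.0 CPM in MII oocytes, with a log2 change of 0.28 (SE 0.233, adjusted p = 0.423) that was -0.48 with spike-in scaling. Both overlapped between the stages. In batch B the log2 change from GV to MI was -0.06 for Prkar1a (SE 0.157, adjusted p = 0.936) and 0.25 for Prkar2a (SE 0.172, adjusted p = 0.648), with 12 of 15 MI oocytes below the GV median of Prkar1a and 13 of 15 above that of Prkar2a.

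To compare genes with each other, transcript counts were divided by transcript length, summed per gene and scaled to the same total in every oocyte, which serves to compare genes within a group. On this per-length scale the GV oocytes of batch A had the order Gnas (mean 133, SD 10.5), Gpr3 (50.2, SD 8.56), Pde3a (39.9, SD 7.08), Prkar1a (29.5, SD 2.96), Prkar2a (11.3, SD 4.03), Prkaca (11.0, SD 2.50), Prkacb (2.98, SD 1.22), Gpr12 (2.01, SD 1.07) and Adcy3 (0.658, SD 0.319). Gnas lay above every other member without overlap, and so did Prkar1a against Prkar2a and Prkaca against Prkacb, while the other neighbours in this order overlapped. In the MII oocytes Gnas had a mean of 64.8, close above Gpr3 at 58.6 and Pde3a at 50.5.

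Batch B had a different order at the same stage. In its GV oocytes Pde3a led (mean 66.7, SD 13.7), ahead of Gnas (26.6, SD 9.87), Prkar1a (17.99, SD 5.83), Prkar2a (11.8, SD 5.56) and Gpr3 (mean 10.7, SD 3.78). All neighbours in this order overlapped. Pde3a also led the MI oocytes at 75.5, ahead of Gnas at 25.2, Prkar2a at 18.4, Prkar1a at 17.3 and Gpr3 at 10.9. The level of the receptors over that of Pde3a had a median of 1.35 in GV and 1.22 in MII oocytes of batch A, and of 0.161 in GV and 0.150 in MI oocytes of batch B. The GV oocytes of the batches did not overlap in this ratio (1.03 to 1.48 in batch A and 0.0509 to 0.445 in batch B), so the batches differed in it at the same stage, and the cause was not tested.

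The balance of PKA subunits was taken over the 4 member genes only, which leaves out Prkar2b and the other subunit genes. The summed level of Prkaca and Prkacb over that of Prkar1a and Prkar2a had a median of 0.359 (0.284 to 0.377) in GV and 0.344 (0.303 to 0.430) in MII oocytes of batch A. In batch B it was 0.262 (0.155 to 0.526) in GV and 0.288 (0.0342 to 0.568) in MI oocytes. The sum of the 2 regulatory genes was the larger in every oocyte, and the groups overlapped in both batches.

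**Figure D2:**
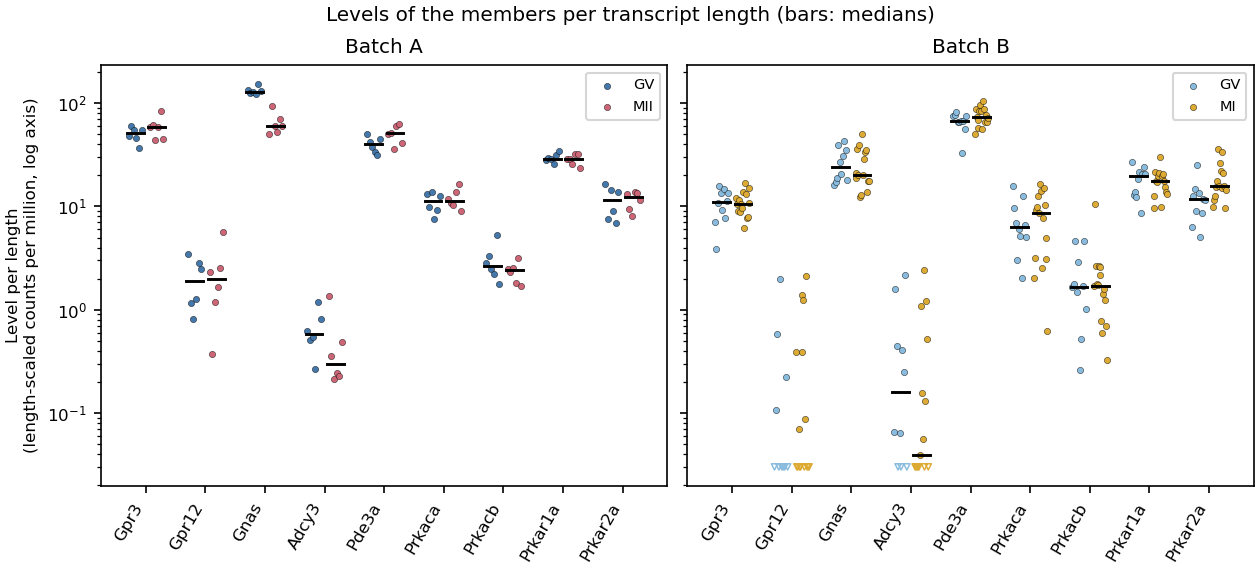
Per-length level of each member (counts divided by transcript length, scaled to the same total in every oocyte) on a log axis, with 1 point per oocyte, bars at the medians and open triangles at the bottom for values below the axis. Gnas leads in the GV oocytes of batch A (mean 133) and Pde3a in the GV oocytes of batch B (mean 66.7).

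Because the libraries were primed on the poly(A) tail, the annotated 3′ ends of the member transcripts were read for a polyadenylation signal (AATAAA or ATTAAA, sense strand, in the last 50 bases). Of 14 member transcripts that were examined, 11 held one, and of 40208 protein-coding transcripts with a 3′ untranslated region of at least 100 bases, 67.9% did. The 30-base windows of the main Gpr3 form and of the 2 main Gnas forms are given 5′ to 3′ with the last signal in capitals, from GRCm38 with GENCODE M21 ends.
Gpr3-202: ccaaccctactcAATAAAaaaaaaatggtt
Gnas-208: aattcaaaatgaAATAAAtattgtgttgtg
Gnas-206: aaaatcaataaaaATTAAAaatgagcaaaa
They lie at chr4:133209348-133209377 on the minus strand and at chr2:174346676-174346705 and chr2:174346715-174346744 on the plus strand. Gnas-208 and Gnas-206 are thus annotated with different ends as well as with and without the alternative exon. The Gnas-206 window also holds AATAAA ahead of the signal in capitals. A run of adenines follows the Gpr3 signal in the genome itself. Pde3a-201, with an annotated 3′ untranslated region of 8555 bases, held neither motif in its last 50 bases. The cytoplasmic polyadenylation element, searched as TTTTAT or TTTTAAT in the last 100 bases, was in 2 of the 14, Adcy3-201 and Prkacb-202, and in 16.98% of the 40208. A match describes the letters in the window and no more.

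The wider pathway was described by 92 further genes in 8 lists. Between GV and MII, 63 of them were tested, 0 were called higher and 2 lower, and 23 had an unadjusted p under 0.05. Of all 12929 genes tested, 278 were called higher and 817 lower, and 4441 had an unadjusted p under 0.05. For the lists, DESeq2 called 2 higher and 2 lower, counts that were not set against its share of all genes. On the adjusted p alone 8 of the 63 were higher and 3 lower, where 1172 and 1490 of the 12929 genes were, and the median log2 change was 0.21, beside 0.01 over all genes tested. With spike-in scaling 0 of the 63 were called higher and 15 lower, where 3919 of the 12929 genes were called. Between GV and MI, 61 were tested, 0 were called higher and 1 lower, 7 had an unadjusted p under 0.05, as did 1371 of all 12419 genes, and the median log2 change was 0.01. DESeq2 likewise called 0 higher and 1 lower.

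Among 20 G proteins and receptor regulators, 0 of 16 tested were called from GV to MII by edgeR, with 8 at an unadjusted p under 0.05 and a median log2 change of 0.50. DESeq2 called Ric8a and Ric8b higher, genes of chaperones for G protein alpha subunits that were chosen for mention after their values were seen. Their log2 changes by edgeR were 1.22 (adjusted p = 0.0727) and 1.08 (adjusted p = 0.0530), and with spike-in scaling they were 0.51 (adjusted p = 0.423) and 0.30 (adjusted p = 0.593). Ric8b was also called higher with RLE size factors, with HTSeq counts and without GV oocyte 5. The most abundant were Rgs2, a regulator that speeds G protein shut-off, at a per-length mean of 315 in GV oocytes of batch A and 131 in those of batch B, and the gamma subunit gene Gng12 at 121 and 83.3. Gng5, another gamma subunit gene, had a mean of 34.0 CPM in GV and 50.4 CPM in MII oocytes, and of 6.30 CPM in GV and 4.25 CPM in MI oocytes. With spike-in scaling the log2 change of Gng5 from GV to MII was -0.19. Its MII and MI changes differed by 1.25 on the log2 scale (SE 0.361, adjusted p = 0.0299), while neither change passed on its own. With no filter on low counts the adjusted p was 0.0586, and with HTSeq counts it was 0.0598, within a range of 0.0102 to 0.0598 over the settings tried.

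Of 9 other adenylyl cyclases, 5 were tested, 0 were called by edgeR at either stage, and 1 had an unadjusted p under 0.05 in each comparison. The 2 most abundant stood above Adcy3 at GV in both batches. Adcy5 had a per-length mean of 5.15 in GV oocytes of batch A and 4.58 in those of batch B, and Adcy6 of 3.44 and 4.15, beside 0.658 and 0.5002 for Adcy3.

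Of 17 other phosphodiesterases, 12 were tested from GV to MII, 0 were called by edgeR and 4 had an unadjusted p under 0.05, with a median log2 change of -0.46. The 2 most abundant rose without reaching 2-fold. Pde8a had a mean of 26.3 CPM in GV and 44.3 CPM in MII oocytes, a log2 change of 0.76 (SE 0.194, adjusted p = 0.0124) that was 0.04 with spike-in scaling. Pde3b, the close relative of Pde3a, had means of 41.7 and 63.3 CPM, a log2 change of 0.60 (SE 0.155, adjusted p = 0.0123) that turned to -0.15 with spike-in scaling. By that scaling Pde1a, Pde1b, Pde1c, Pde4b, Pde5a, Pde9a and Pde10a, chosen for mention after their values were seen, were called lower at MII. Pde1b was also called lower without GV oocyte 2 and without MII oocyte 5. From GV to MI the log2 changes were -0.26 (adjusted p = 0.677) for Pde8a and 0.07 (adjusted p = 0.903) for Pde3b. For Pde8a the MII and MI changes differed by 1.08 (SE 0.318, adjusted p = 0.0329), with an adjusted p of 0.0549 with no filter and 0.0659 with HTSeq counts, within a range of 0.0126 to 0.0659. These were the 2 pathway genes called by edgeR for that difference, Gng5 and Pde8a, of 69 tested, where 608 of all 15083 genes were called. DESeq2 also called Crtc3, chosen for mention after its values were seen (adjusted p by edgeR = 0.0921). An unadjusted p under 0.05 was found for 11 of the 69 and for 2671 of all genes, and the median difference was 0.19 beside 0.04 over all genes.

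Of 6 other PKA subunits and inhibitors, 4 were tested and 0 were called by edgeR at MII or MI, with 0 at an unadjusted p under 0.05. The inhibitor gene Pkig and the regulatory gene Prkar2b were the most abundant, at per-length means of 62.0 and 17.6 in GV oocytes of batch A and 55.2 and 18.8 in those of batch B. Prkar2b thus had a higher per-length mean at GV than Prkar2a, which had 11.3 and 11.8.

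The anchoring proteins hold PKA at places in the cell. Of 14, 11 were tested and 1 was called from GV to MII: Akap5 had a mean of 3.10 CPM (1.89 to 4.68) in GV and 1.20 CPM (0.319 to 1.75) in MII oocytes, without overlap, and fell by 1.36 on the log2 scale (SE 0.382, adjusted p = 0.0197). This call was lost with no filter (adjusted p = 0.0558) and in a single fit of all 37 oocytes (0.158), and HTSeq counts turned the change to 1.14 (adjusted p = 0.241), within a range of 0.00131 to 0.241. Akap12 and Akap1 were the most abundant, at per-length means of 86.9 and 67.9 in GV oocytes of batch A and 127 and 40.0 in those of batch B. Their log2 changes to MII were -0.02 (adjusted p = 0.961) and -0.12 (adjusted p = 0.730).

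Of 9 other cAMP effectors, 3 were tested and 0 were called by edgeR, with 0 at an unadjusted p under 0.05 at MII and 1 at MI. Rapgef3, which encodes a cAMP-driven exchange factor for small G proteins, had a per-length mean of 31.3 in GV oocytes of batch A and 73.6 in those of batch B. Popdc2, a membrane protein gene whose product binds cAMP, had 13.6 and 5.75.

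In the list named for PKA targets in meiotic resumption and transcription, all 9 genes were tested at MII and 0 were called by edgeR. Of these, 4 had an unadjusted p under 0.05, and 2 were higher and 1 lower on the adjusted p alone. Whether each gene of the list is itself a substrate of PKA was not tested. Wee2, the kinase gene that keeps the oocyte's cell cycle kinase inactive, was among the most abundant messages of the pathway. It had a mean of 462 CPM in GV and 622 CPM in MII oocytes, a log2 change of 0.43 (SE 0.145, adjusted p = 0.0462) that turned to -0.30 with spike-in scaling. Atf1, a transcription factor gene, had means of 59.7 and 79.7 CPM, a log2 change of 0.42 (SE 0.143, adjusted p = 0.0479) that turned to -0.31. The gene that passed lower was Fzr1, chosen for mention after its values were seen, with means of 75.3 and 48.2 CPM and a log2 change of -0.64 (adjusted p = 0.0238) that was -1.35 with spike-in scaling, where it was called. In batch B neither Wee2 nor Atf1 passed, at 0.01 (adjusted p = 0.989) and -0.13 (adjusted p = 0.851).

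Of 8 genes of cGMP supply and gap junctions, 3 were tested from GV to MII, 3 from GV to MI and 5 for the difference of the MII and MI changes. Impdh2, an enzyme gene of guanine nucleotide synthesis, was called lower at MII: it ran from 2.88 to 10.3 CPM in GV and from 0.423 to 2.63 CPM in MII oocytes, without overlap, and fell by 2.03 on the log2 scale (SE 0.492, adjusted p = 0.0089). In a single fit of all 37 oocytes the adjusted p was 0.0714, within a range of 0.000214 to 0.0714. Gja4, the gene of the gap junction protein of the oocyte, was the most abundant at a per-length mean of 521 in GV oocytes of batch A and 162 in those of batch B, and its log2 change to MII was -0.49 (SE 0.199, adjusted p = 0.0912). With spike-in scaling that change was -1.16 (adjusted p by edgeR = 0.000319), and Gja4 was called lower.

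Gja1, the gap junction gene of the granulosa cells, was the gene called between GV and MI. It ran from 0.370 through a median of 2.09 to 10.2 CPM in GV and from 0 through 0.166 to 0.960 CPM in MI oocytes, and fell by 3.42 on the log2 scale (SE 0.618, adjusted p = 0.0174). The groups overlapped only through the lowest GV oocyte. The call was lost with HTSeq counts (adjusted p = 0.263) and with a replicate block (0.245), within a range of 4.7e-05 to 0.440 over the settings tried. That block pairs oocytes by a number that no label ties to a pairing. The cumulus and granulosa markers summed to 22.9 to 47.8 CPM in these GV and 26.0 to 79.9 CPM in these MI oocytes, with 8 and 9 of 14 at a median of 0. Most of that sum came from Cyp19a1 and Nr5a2. Inhba, a granulosa marker chosen for mention after its values were seen, was too low to be tested there and ran from 0.585 through a median of 1.14 to 5.25 CPM in GV and from 0 through 0.172 to 0.808 CPM in MI oocytes. The 4 markers of the list that were tested had a median log2 change of 0.40, in the other direction, with adjusted p from 0.272 to 0.988. The part of granulosa cell message in the Gja1 result was not tested.

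The genes most like Gpr3 and Pde3a over the 37 oocytes were found among 6597 genes of at least 10 CPM on average, on log2 CPM centred within each batch. Gpr3 was most like Phf13 (Pearson r 0.643, Spearman rho 0.619), Extl3 (r 0.627, rho 0.740) and Midn (r 0.625, rho 0.503). Pde3a was most like Ubn1 (r 0.897, rho 0.802), Sspn (r 0.896, rho 0.875) and Hnrnpr (r 0.888, rho 0.827). Centring removed the batch means only, so differences of stage and depth between oocytes remain in these values. The likeness of Pde3a to its nearest genes was the closer of the pair.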

How the data were processed

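Single oocytes were sequenced by Smart-seq2. The authors trimmed reads with Trim Galore 0.6.4 and deposited, per gene, an HTSeq 0.12.4 count of reads aligned with STAR 2.7.6a, and an RSEM 1.3.1 expected count per gene and per transcript, none of them normalized. Expected counts were rounded for the tests. Spike-in features were set apart, no column was left out, and groups were taken from the labels.

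Fits used edgeR 4.0.16 in R 4.3.3 (filterByExpr, TMM, quasi-likelihood, Benjamini-Hochberg over all features tested), each batch on its own. The MII and MI changes were set against each other in 1 fit of 4 groups. Transcript usage was tested with diffSpliceDGE. CPM used the TMM-scaled library size. The fits were tested on simulated counts, where the usage test recovered the smaller part of the changed genes. Described values were computed in Python 3.11.15 with pandas 2.3.3, and figures with matplotlib 3.10.9.

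Alternatives were no filter, RLE size factors, DESeq2 1.42.0, HTSeq counts, a replicate block, 1 fit of all 37 oocytes, spike-in size factors, leaving oocytes out, and transcript length minus 200 bases. Depth limits genes near 1 CPM to a few counts, and p-values cover spread between oocytes only.

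Named were all 9 members and the 3 genes most like Gpr3 and like Pde3a. Of each list, up to 4 called genes with the smallest adjusted p and its 2 most abundant genes at GV were named. Member transcripts called, or with at least 10% of their gene in a group's mean, were described, except Gpr12-203, Gpr12-201 and Adcy3-206. Gpr12-203 met that share in every group, Gpr12-201 in MI oocytes only and Adcy3-206 in GV oocytes of batch B only. Members and lists were chosen with earlier results of these data known.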

Additional observations from a re-analysis of the deposited data

Results flagged for a closer look

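Among the 27 sets of member values in groups of 4 to 10 oocytes, 5 held 1 oocyte that stood far above the rest. The nominal chance rate of this rule is about 1 in 20. That rate assumes a normal spread, which was not tested for CPM, and the values of Gpr12 and Adcy3 rest on few reads. The comparison thus cannot decide whether 5 of 27 is more than chance gives. Gpr3 was at 78.4 CPM in MII oocyte 5 of batch A, and the other 5 lay between 46.9 and 56.9 CPM. Gpr12 was at 1.44 CPM in GV oocyte 5 of batch B, and the others lay between 0 and 0.647 CPM. Adcy3 was at 2.68 CPM in MII oocyte 1 of batch A, and the others lay between 0.634 and 1.07 CPM. That oocyte also had the most genes detected of the MII oocytes and the 16.3 CPM of blood and immune markers, and a link to Adcy3 was not tested. Prkacb was at 11.0 CPM in GV oocyte 3 of batch B, and the others lay between 0.512 and 5.58 CPM. Prkar1a was at 58.3 CPM in GV oocyte 6 of batch A, and the others lay between 46.7 and 50.2 CPM. No oocyte appears more than once.

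For 3 of the 69 genes of the pathway lists that were tested, the change from GV to MII and the change from GV to MI differed on the adjusted p alone by the test of the difference itself (edgeR), as they did for 823 of all 15083 genes. Gng5 and Pde8a were past 2-fold and Gnai3 was not. The differences were 0.79 on the log2 scale for Gnai3 (adjusted p = 0.0144), an inhibitory G protein gene chosen for mention after its values were seen, 1.25 for Gng5 and 1.08 for Pde8a. Gnai3 ran from 58.0 to 75.0 CPM in GV and from 84.4 to 109.6 CPM in MII oocytes, without overlap (a log2 change of -0.17 with spike-in scaling), and its median was 57.3 CPM in GV and 51.8 CPM in MI oocytes of batch B. MI and MII oocytes also differed in batch and in culture against ovulation, which cannot be told apart from stage.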

How the results depend on the processing

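The members called stayed at 0 from GV to MI and for the difference of the MII and MI changes under every alternative. From GV to MII they were 0 except on the adjusted p alone (2) and with spike-in scaling (1). Spike-in scaling turned the log2 changes of Gpr3 (-0.49), Gpr12 (-0.59), Pde3a (-0.16), Prkaca (-0.40), Prkar1a (-0.54) and Prkar2a (-0.48), by its own construction, since it moves nearly the same amount off every gene. HTSeq counts turned those of Adcy3 at MII (0.060), Akap5 at MII (1.14), Gpr3 at MI (-0.0050) and the Gnas difference (1.96, on HTSeq counts of Gnas too few to be used). Log2 changes near 0 also turned. Prkacb at MII was 0.019 in a fit of all 37 oocytes, and without single oocytes it ran from -0.19 to 0.19. Gpr12 at MII ran from -0.16 to 0.46 without single oocytes. Prkaca and Prkar2a at MII did not turn in those fits, but they ran from 0.22 to 0.44 and from 0.16 to 0.38. Without MI oocyte 15, Gpr3 at MI was -0.018 and Prkaca 0.022. Prkacb at MI was 0.015 without MI oocytes 4, 8 and 9, and 0.013 without them on HTSeq counts. The cause was not tested for these.

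Genes called from GV to MII (1095) numbered 1859 with no filter, 2662 on the adjusted p alone, 653 in a fit of all 37 oocytes and 3919 with spike-in scaling, and 842 to 1246 without single oocytes. Genes called from GV to MI (15) numbered 40 with no filter, 121 by DESeq2, 0 with HTSeq counts, 107 in a fit of all 37 oocytes, 36 without MI oocytes 4, 8 and 9, and 0 without them on HTSeq counts. Transcripts called from GV to MI (0) numbered 2 with no filter and 103 by DESeq2. The cause was not tested.

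With a replicate block, which pairs oocytes by their number, the log2 change of Prkacb was 4.4e-05 at MII and that of Prkaca 0.051 at MI, and 0 genes were called at MI and 532 transcripts at MII. Oocytes of the same number correlated at -0.327 to 0.341 in batch A (1 of 6 over 0.1) and at -0.146 to 0.107 in batch B (1 of 10 over 0.1). Most same-numbered oocytes thus did not vary together. The labels name no pairs, and these values cannot decide whether any oocytes of the same number share a female.

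With 200 bases taken off each transcript length, the per-length mean of Gnas was 122 in GV oocytes of batch A. Pde3a was 32.8 in GV and 39.8 in MII, Prkar1a was 25.3 and 23.7, and receptors over Pde3a were 1.55 and 1.43. Shorter transcripts gain by construction.

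Low counts limit Gpr12 and Adcy3, and batch limits any statement across MI and MII. Spike-ins were in batch A alone, so total RNA per oocyte was not scaled in batch B. Transcript shares rest on a model that splits reads among overlapping forms.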
